A study of Mus musculus with 76 samples.

Results

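The variable segments of the T cell receptor alpha locus (Trav) and beta locus (Trbv) were all gene models whose symbol begins with Trav or Trbv in the whole thymus table, joined to the other tables by gene identifier. They numbered 163 of 55487 genes, made up of 128 Trav and 35 Trbv segments. The annotation lists 108 Trav and 22 Trbv as functional V genes and the remaining 20 Trav and 13 Trbv as V pseudogenes. In the mm10 mouse genome the Trav segments lie on chromosome 14 between 52427928 and 53977678, and the Trbv segments on chromosome 6 between 40891229 and 41558452. In the sorted T cells, 118 Trav and 26 Trbv segments received a count in at least 1 library.

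The study compared mice of the SOD1-G93A line, a transgenic model of amyotrophic lateral sclerosis that carries a mutant human superoxide dismutase 1, with WT mice. The 53 libraries used here were sorted Treg (regulatory T cells, 12 libraries) and sorted CD4 cells (11 libraries) at d30 and d120, whole thymus at d120 (6), inguinal lymph node (iLN) at d120 (6) and cultures labelled Treg (18). The cultures are titled Tregdiff and were labelled as not activated (T0) or activated (T2 and T20), and the labels give no time unit. Every genotype had 3 libraries per population and age or culture time, except WT CD4 at d30, which had 2, numbered 2 and 3. The strain field reads SOD1-G93A for WT samples as well, the genotype field tells them apart, and no background strain is stated. The labels do not say that replicates came from separate mice, so p-values measure the spread between libraries, which may be technical.

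A T cell receptor chain is assembled in the thymus by joining 1 V segment to a J segment (and a D segment in the beta chain), so the V segment in a transcript is set by DNA rearrangement and not by promoter choice alone. Each T cell carries its own combination, and V transcript counts of a bulk sample reflect the segments its cells have joined and the RNA made from them. The gene-level counts used here do not show whether a read came from a joined segment. Trav rearrangement starts with the segments nearest to the J cluster and can move outwards. Invariant natural killer T cells share an alpha chain made from Trav11 and Traj18, paired with a beta chain that uses Trbv13, Trbv29 or Trbv1.

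All 10 genes of a T cell list were detected in the sorted Treg and CD4 libraries. The label Treg did not match the markers of the cultures at T0: the summed level of a 5-gene Treg list was 49.6 to 382 CPM (counts scaled by the total counts of the library), below the 473 to 1476 CPM of sorted CD4 and the 1225 to 2068 CPM of sorted Treg. Library depth differed widely: total counts ran from 1944589 to 34151147 in Treg, from 837050 to 14047347 in CD4, from 171619 to 19699330 in cultures and from 63887 to 894958 in iLN. Trav segments took 80.2 to 134 and Trbv segments 282 to 416 CPM in Treg, against 173 to 340 and 310 to 600 in CD4. A Treg library thus held 202 to 4328 Trav and 681 to 14209 Trbv counts, whereas an iLN library held 11 to 89 Trav and 11 to 40 Trbv counts, too few to describe single segments. In bulk samples fewer cells using a segment and less RNA per cell cannot be told apart.

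The sequences below are the 3′ ends of 4 Trbv segments that carry the main beta-chain pattern, from the GENCODE vM21 transcripts on mm10. Each begins 39 bases before the codon of the conserved cysteine, after which V joins D or J, and that TGT codon is in capitals. Trbv12-1 (chr6:41113550-41114067), Trbv13-2 (chr6:41121396-41121832) and Trbv17 (chr6:41163062-41163556) are V genes on the plus strand that were at 0 counts in some libraries. Trbv24 (chr6:41218091-41218557, plus strand) is annotated as a pseudogene and has a second codon in capitals, the stop codon TAG, which stands where the other 3 have a tyrosine codon.
Trbv12-1: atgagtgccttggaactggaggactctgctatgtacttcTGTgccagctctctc
Trbv13-2: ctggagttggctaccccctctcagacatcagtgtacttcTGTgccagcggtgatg
Trbv17: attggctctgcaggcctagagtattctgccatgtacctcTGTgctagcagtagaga
Trbv24: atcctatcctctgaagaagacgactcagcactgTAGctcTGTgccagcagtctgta

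Counts on the beta locus were concentrated on few segments. The 8 with the highest mean share of Trbv counts over the 23 sorted libraries were Trbv3 at 13.1%, Trbv19 at 9.67%, Trbv5 at 8.18%, Trbv1 at 7.61%, Trbv2 at 7.25%, Trbv4 at 5.69%, Trbv12-2 at 5.55% and Trbv24 at 5.43%. Single libraries spread widely around these means. Trbv3 took 5.98% to 18.2% of Trbv counts, Trbv19 4.69% to 15%, Trbv5 4.89% to 12.8% and Trbv1 3.90% to 14.8%. The pseudogene Trbv24 thus ranked among the most counted beta segments.

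The main difference between libraries on the beta locus was a run of neighbouring segments that varied together. Between Trbv5 and Trbv19 the annotation places 17 segments, of which 9 are V genes: Trbv12-1, Trbv13-1, Trbv12-2, Trbv13-2, Trbv13-3, Trbv14, Trbv15, Trbv16 and Trbv17, from 41113550 to 41163556. This interval was chosen after its values had been seen, so its shares are given as a description with no test. Among SOD1 Treg at d30 it took 50.3% of Trbv counts in replicate 1, 0% in replicate 2 (0 of 681 counts, which allows up to 0.441%) and 49.2% in replicate 3. Among WT Treg at d30 it took 0.0382% in replicate 1 (1 of 2618 counts), 25.5% in replicate 2 and 26.2% in replicate 3. In CD4 at d30 the shares were 51.9%, 0% (0 of 2981, up to 0.101%) and 52.3% in SOD1 replicates 1 to 3, and 26.3% and 27.4% in WT replicates 2 and 3. The libraries at d30 therefore lay near 0, near 25% or near 50%, and a library near 0 occurred in both genotypes, so the genotypes overlapped.

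At d120 no sorted Treg or CD4 library was at 0. Treg shares were 24.3%, 25.6% and 24.3% in SOD1 and 43.5%, 19.7% and 23.8% in WT. CD4 shares were 32.4%, 27.2% and 25.7% in SOD1 and 50.9%, 24.9% and 22.1% in WT. WT replicate 1 was the highest in both populations, and the other 5 libraries lay at 19.7% to 25.6% in Treg and 22.1% to 32.4% in CD4. Whole thymus libraries, whose shares come from TPM and not from counts, repeated the d30 picture with 0%, 0% and 52.3% in SOD1 and 51.9%, 0% and 30.1% in WT.

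**Figure D1:**
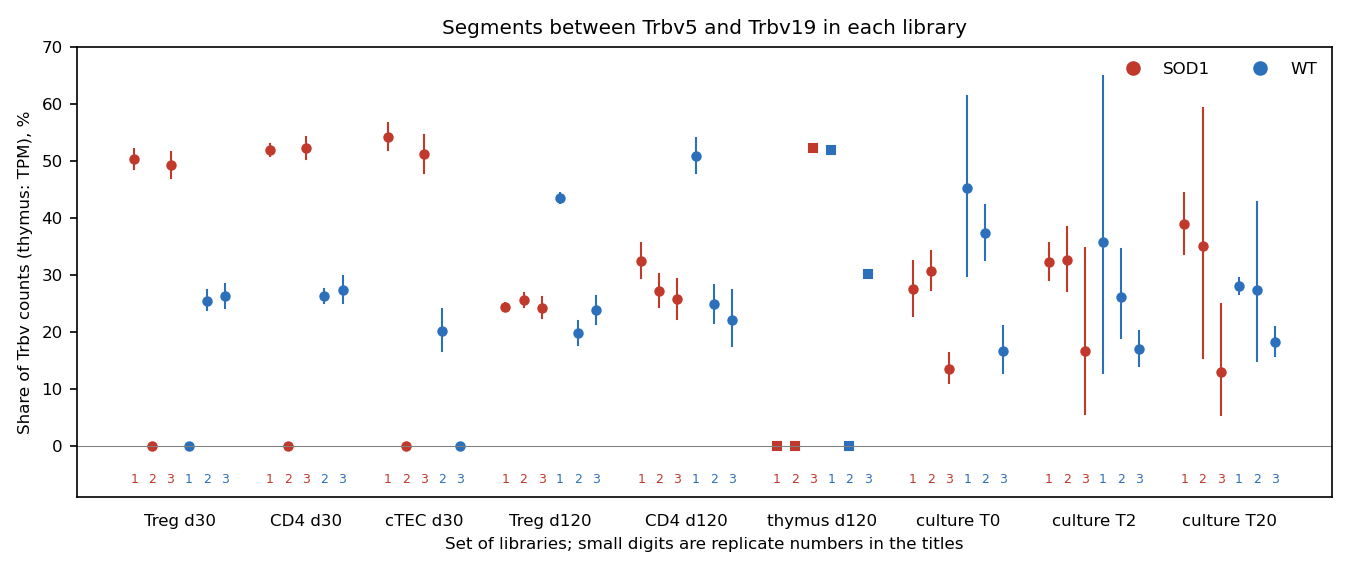
Share of Trbv counts (percent) that fell on the segments between Trbv5 and Trbv19 in each library, with 95% exact binomial intervals for counts. Libraries are sorted Treg and CD4 of both ages, thymic epithelial cTEC of d30, whole thymus, and cultures at T0, T2 and T20. Thymus points are shares of TPM and have no interval. Treg and CD4 libraries of d30 and thymus libraries sit near 0, near 25% to 30% or near 50%, and libraries at 0 occur in SOD1 and in WT.

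Libraries at 0 occurred in several populations. At d30 SOD1 replicate 2 was at 0 in Treg and CD4, and also in the sorted thymic epithelial libraries, which also held Trbv counts (0 of 3251 Trbv counts in cTEC and 0 of 338 in mTEC). The library names of these 4 carry the consecutive numbers 13 to 16. WT Treg replicate 1 is numbered 23. Its neighbours were WT cTEC replicate 3, numbered 21, with 0 of 2185 counts, and WT mTEC replicate 1, numbered 22, with 0 of 99 counts, which allows up to 3.03%. Libraries at 0 thus had neighbouring numbers and spanned cell types. Whether such a group of libraries came from 1 mouse is not given in the labels.

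The block was absent or present as a unit. In libraries with at least 1000 Trbv counts, 17 in all, 10 Trbv segments reached 1% of Trbv counts in one library and stood at 0 in another, and 9 of these were the V genes of the block. The other one was Trbv21, a V gene beyond Trbv19. Its share went the opposite way to the block: 1.91%, 1.49% and 0.973% in the 3 T cell libraries of d30 where the block was near 0, and 0 to 0.123% in those of d30 where it was near 50%. No 2 Trbv transcripts in the annotation are identical, the closest pair being Trbv13-2 and Trbv13-3 at 90.6% identity.

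Trbv24, the segment with the stop codon shown above, was counted most where the block was missing at d30 and in whole thymus. At d30 its share of Trbv counts in Treg was 1.44%, 9.10% and 1.52% in SOD1 and 8.79%, 4.90% and 4.87% in WT. In CD4 at d30 it was 0.984%, 10.6% and 1.02% in SOD1 and 4.89% and 5.26% in WT. The 3 libraries without the block were highest, the libraries near 25% were intermediate and those near 50% lowest, with no overlap between the 3 levels. The order held when block counts were removed from the denominator, with 8.79% to 10.6%, 6.58% to 7.24% and 2.05% to 3.0% for the 3 levels. Thymus TPM shares followed the same order, at 8.88%, 10.6% and 0.733% in SOD1 and 0.563%, 10.02% and 4.42% in WT.

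At d120 the order was looser. WT replicate 1, the library with the largest block share in each population, had the lowest Trbv24 share, 2.26% in Treg and 3.39% in CD4. The other 5 libraries of each population had 4.93% to 7.59% in Treg and 4.42% to 12.1% in CD4. The 12.1% of WT CD4 replicate 2, with a block share of 24.9%, was above all Treg, CD4 and thymus libraries without the block. As background, laboratory mouse strains differ in the beta locus: the haplotype of SJL mice lacks a run of Trbv gene segments and has an intact Trbv24 (Vβ17), whereas Trbv24 is a pseudogene in C57BL/6, the strain of the reference genome. Whether such a haplotype segregated among these mice was not tested, since neither genomic sequence nor the background strain was used here.

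**Figure D2:**
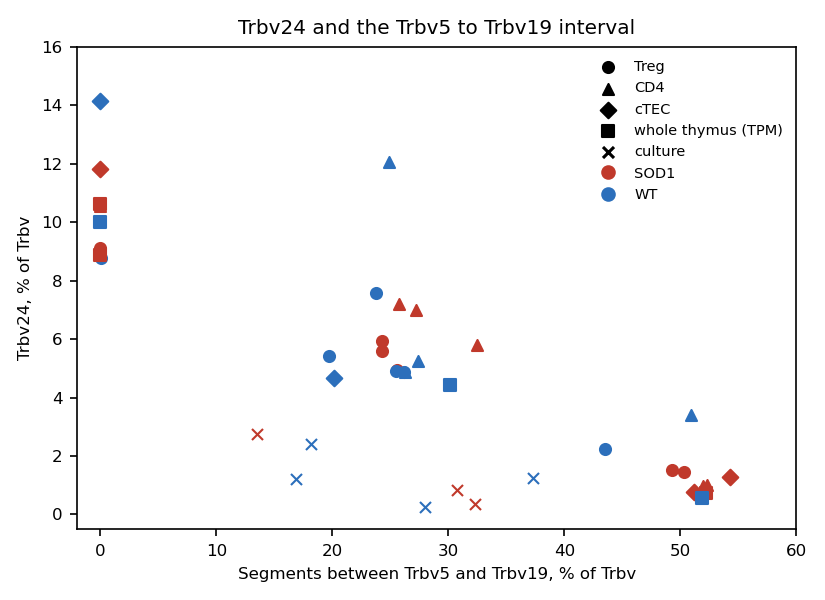
Trbv24 share against the share of the segments between Trbv5 and Trbv19, both in percent of Trbv counts (TPM for whole thymus), 1 point per library, shaped by population. Treg, CD4 and thymus libraries without the block have Trbv24 at 8.79% to 10.6%, and those near 50% at d30 lie between 0.984% and 1.52%.

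Counts on the alpha locus were spread over many more segments. The highest mean shares of Trav counts in the sorted libraries were 3.86% for Trav3-3 (1.10% to 7.75%) and 3.50% for Trav7-4 (1.10% to 6.05%). Trav14-1 followed at 2.07%, Trav16n at 1.84%, Trav14-2 at 1.76%, Trav3d-3 at 1.73%, Trav7d-4 and Trav21-dv12 at 1.69% each, Trav3n-3 at 1.68% and Trav12d-3 at 1.66%. Several of these ranged down to 0 counts in some library, among them Trav14-1 (0 to 4.65%), Trav16n (0 to 3.70%) and Trav21-dv12 (0 to 7.35%).

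Many alpha segments exist in copies that short reads cannot separate. The mouse Trav locus contains repeated cassettes, whose members carry d or n in their names, and the annotation holds 22 pairs of Trav segments (44 segments) with identical transcript sequence over their aligned length. Among pair and library combinations with at least 10 counts on the pair, 1 copy was at 0 in 220 of 246, or 89.4%. Which copy took the counts was not stable: where both same-numbered Treg and CD4 libraries had 1 copy at 0, the counted copy was the same in 28 of 58 cases, or 48.3%. Of the 37 Trav segments that reached 1% in one library and stood at 0 in another, among 8 libraries with at least 1000 Trav counts, 31 belonged to such pairs. The other 6 were Trav6d-3, Trav7n-4, Trav13n-4, Trav4-2, Trav6-3 and Trav8-1. How reads matching several segments were assigned is not given in the sources used here, so values of a single copy are uncertain and the sum of a pair is given beside them.

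Trav11, the alpha segment of the invariant natural killer T cell receptor, belongs to such a pair. Trav11 (chr14:53519303-53519859) and Trav11d (chr14:52824357-52824912) were identical over 342 of 342 aligned bases, and the pseudogene Trav11n (chr14:53135122-53135678) matched Trav11 at 335 of 343 bases. The lines below show 90 bases of each transcript, from base 177 to base 266 of Trav11, on the plus strand. Capitals mark the 4 positions in this stretch at which Trav11n differs from Trav11, of 8 in all. They are shown because no read from this stretch could separate Trav11 from Trav11d.
Trav11: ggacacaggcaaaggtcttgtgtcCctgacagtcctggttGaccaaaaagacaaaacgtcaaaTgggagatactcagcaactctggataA
Trav11d: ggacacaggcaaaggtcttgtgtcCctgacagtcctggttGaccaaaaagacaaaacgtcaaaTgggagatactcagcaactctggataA
Trav11n: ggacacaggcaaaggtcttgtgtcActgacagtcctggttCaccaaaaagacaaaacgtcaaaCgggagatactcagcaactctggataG

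In CD4 at d30 Trav11 had 45, 15 and 0 counts in SOD1 and 63 and 11 in WT, while Trav11d had 0, 0 and 19 in SOD1 and 0 and 0 in WT. Every one of these libraries had counts on exactly 1 of the copies. In CD4 at d120 Trav11 had 0, 28 and 0 counts in SOD1 and 46, 0 and 7 in WT, and Trav11d had 11, 0 and 6 in SOD1 and 0, 7 and 0 in WT. Counts again sat on 1 copy per library, and which copy it was differed within each genotype.

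In whole thymus the choice of copy coincided with genotype. Trav11 was listed at 0 TPM in all 3 SOD1 libraries and at 45.3, 22.5 and 10.2 TPM in WT. Trav11d was listed at 6.74, 8.40 and 27.5 TPM in SOD1 and at 0 in all 3 WT libraries. Trav11 was the only one of 134 segments called lower in SOD1 thymus (limma, Benjamini-Hochberg adjusted p = 0.0378), where 0.0139% of all genes tested were called lower and 0.0693% higher. Trav11d was not called, with an adjusted p of 0.122 in limma. For the sum of both copies, added after the data had been seen, the difference was -0.85 ± 0.64 (SE) on the log2(TPM + 1) scale, with a limma adjusted p of 0.999. The Trav11 call was also lost when SOD1 replicate 1, 2 or 3 or WT replicate 2 was left out.

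**Figure D3:**
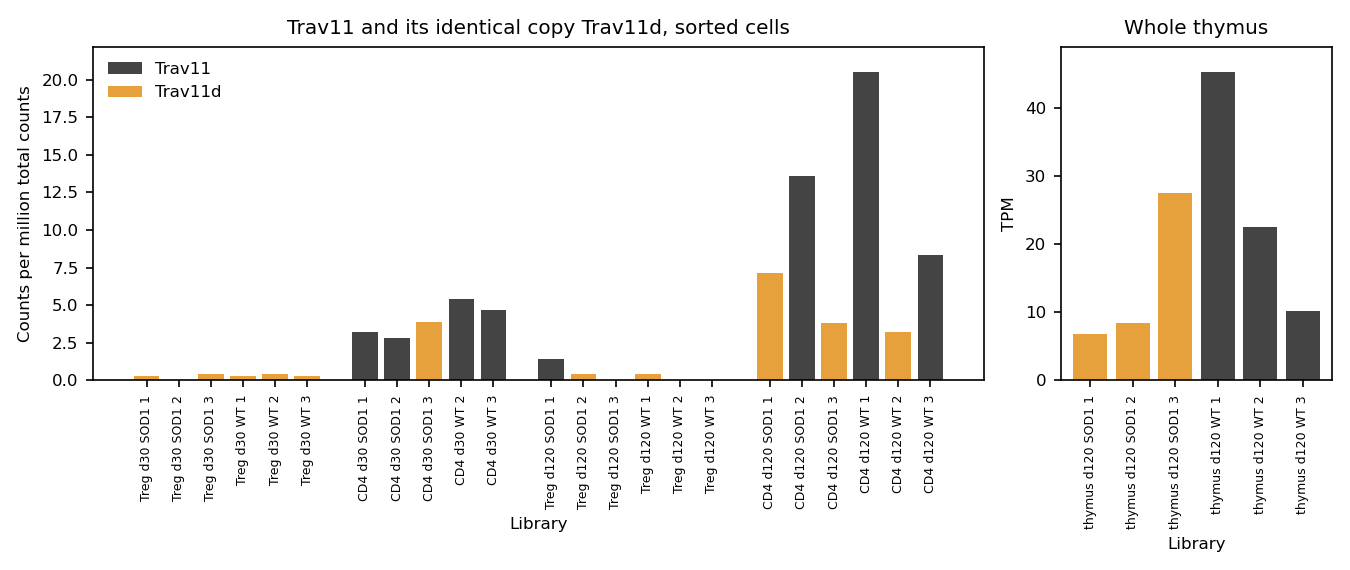
Trav11 and its identical copy Trav11d, stacked, in CPM in each sorted Treg and CD4 library, with whole thymus in TPM in the right panel. Most bars have 1 colour only, and the summed bars of CD4 stand above those of Treg at both ages.

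Segments absent in one genotype were few, and no segment was absent in more than 1 set of libraries. Absent here means 0 counts in every library of one genotype and at least 1 count in every library of the other. In Treg at d30 it held for 1 of 136 detected segments (0.735%, against 0.828% of all detected genes), namely Trav3-4, with 2 to 3 counts in WT and 0 in SOD1. In Treg at d120 it held for 2 of 136 (1.47%, against 0.605%): Trav7n-5, with 31, 17 and 14 counts in SOD1, and Trav15n-1, with 47, 15 and 7. Both have an identical copy that was counted in WT, Trav7d-5 at 108, 0 and 2 and the copy of Trav15n-1 at 105, 8 and 21. In CD4 at d30 it held for 1 of 140 (0.714%, against 1.25%), namely Trav13-3, with 3 to 6 counts in SOD1 and 0 in WT.

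In CD4 at d120 it held for 2 of 130 segments (1.54%, against 0.536%), both with 0 counts in WT. Trav3n-3 had 23, 6 and 22 counts in SOD1, and its copy Trav3d-3 was counted in WT at 4, 5 and 8. Trav12d-3 had 11, 7 and 38 counts in SOD1, which is 2.31%, 1.18% and 9.31% of Trav counts, and here its copy Trav12n-3 was at 0 in all 6 libraries. Among sorted cells and thymus it was the sole such segment with a mean share of at least 0.5% whose identical copy was not counted in the genotype that lacked it. The sum had an unadjusted p of 4.72e-04 in edgeR's quasi-likelihood test and an adjusted p of 0.589. At d30 the pair was counted in every CD4 library: WT replicate 2 had 50 counts, all on Trav12n-3, and WT replicate 3 had 23, all on Trav12d-3.

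The other sets held small counts. Absent in one genotype were 1 of 87 segments in iLN (1.15%, against 0.503%), namely Trbv13-3, at 1 to 2 counts in SOD1, and 2 of 145 in thymus (1.38%, against 0.615%), Trav11 and Trav11d as above. Cultures had 2 of 127 at T0 (1.57%, against 1.09%), 0 of 129 at T2 (against 0.27%) and 3 of 125 at T20 (2.40%, against 1.14%). The T0 pair, Trav7-1 and Trav12n-2, was absent in WT, and the T20 segments Trav14d-2, Trav13n-2 and Trav9n-4 were absent in SOD1. Of the 14 cases over all sets, 9 concerned a segment with an identical copy.

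In sorted cells no single segment passed edgeR's test between SOD1 and WT, although the segments absent in one genotype, listed above, did not overlap in their sets. By edgeR's quasi-likelihood test with Benjamini-Hochberg adjustment, 0 of 83 segments tested passed in Treg at d30 and 0 of 83 at d120, with 1 and 7 at an unadjusted p under 0.05 and 0 and 0 in DESeq2. Of all genes tested in Treg, 0.0135% were called higher and 0% lower in SOD1 at either age. In CD4, 0 of 71 segments passed at d30 and 0 of 71 at d120, with 4 and 11 at an unadjusted p under 0.05 and 0 and 1 in DESeq2, against 0.00801% of all genes higher and 0% lower. Culture libraries had 18 segments tested, of which edgeR's test called 0 at T0, 0 at T2 and 0 at T20, with 2, 1 and 0 at an unadjusted p under 0.05 and 0 at each time in DESeq2. The corresponding shares of all genes were 0.0509%, 0.0594% and 0.0848% higher and 0.017%, 0.0339% and 0.00848% lower. No iLN segment was abundant enough for the test, in which 0.0383% of all genes were called higher and 0.0191% lower. Of 18 other receptor genes listed (among them constant regions, CD3 chains and recombination genes), 16 were tested in Treg, CD4 and thymus, 14 in cultures and 7 in iLN, and none of those tested was called between genotypes.

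Relative to library depth, sorted Treg carried fewer alpha V counts than CD4 cells. Of 88 Trav segments tested at d30, 75 had a negative log2 fold change of Treg over CD4, with a median of -1.40, and at d120 the number was again 75, with a median of -1.19. Of 23 Trbv segments, 20 were negative at each age, with medians of -0.65 and -0.44. The median over all genes tested was 0.01 at d30 and 0.14 at d120. The constant region Trac, which all alpha transcripts share, moved the same way, with log2 fold changes of -1.52 at d30 and -1.38 at d120 (edgeR adjusted p = 1.73e-04 and 1.41e-04). Trbc1 and Trbc2 did not pass at either age, at 0.25 and 0.30 for Trbc1 and -0.21 and 0.09 for Trbc2.

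At d120 edgeR's quasi-likelihood test called 12 of 111 segments lower in Treg (10.9% of all genes were higher and 6.72% lower) and none higher. Trbv29, a beta segment also used by invariant natural killer T cells, had 18.5, 11.3 and 8.25 CPM in SOD1 Treg and 12.2, 9.60 and 6.48 in WT Treg. In CD4 it had 27.8, 23.4 and 19.8 in SOD1 and 26.8, 37.9 and 20.3 in WT. The Treg and CD4 libraries did not overlap, and the log2 fold change was -1.37 ± 0.31 (SE, edgeR adjusted p = 0.00452). The call was kept whichever library was left out. The other beta segments of these cells did not pass at d120. Log2 fold changes were -0.20 ± 0.37 for Trbv1, -0.83 ± 0.91 for Trbv13-1, -1.06 ± 0.86 for Trbv13-2 and -0.97 ± 0.92 for Trbv13-3 (SE, edgeR adjusted p = 0.750, 0.562, 0.422 and 0.495). The Trbv13 segments lie in the block, which was missing from some d30 libraries of the same fit. With such wide SEs the test could not tell whether they differed as Trbv29 did. As a share of Trbv counts Trbv29 was 1.81% to 4.45% in Treg and 4.81% to 12.2% in CD4. At d30 the difference was -1.10 ± 0.32 and did not pass (edgeR adjusted p = 0.0553), with shares of 2.34% to 4.26% against 2.95% to 5.68%.

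Trav8d-2 was called lower in Treg at both ages by edgeR's test. At d120 it had 0.322, 0.738 and 0.688 CPM in SOD1 Treg and 0.278, 0 and 0 in WT Treg, against 4.52, 0.973 and 1.92 in SOD1 CD4 and 4.91, 1.85 and 3.58 in WT CD4. Every CD4 library was above every Treg library (log2 fold change -3.35 ± 0.74, edgeR adjusted p = 0.00323), and the call held in 12 of 12 fits that left out 1 library. The lowest CD4 value, 0.973 CPM, came from a library of about 2056100 total counts and so rests on very few counts. At d30 Trav8d-2 was the only one of 111 segments called (log2 fold change -2.82 ± 0.74, edgeR adjusted p = 0.0268), where 2.17% of all genes were higher in Treg and 2.5% lower. DESeq2 called 9 segments at d30, and edgeR without the filter on low counts called 6. With the replicate number as a block in the d30 fit, 0 segments were called by edgeR's test and the Trav8d-2 difference was -2.55 with an adjusted p of 0.209. The d30 call was also lost in 7 of 11 fits without 1 library.

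The other 10 segments lower in Treg at d120 were all Trav. The most counted were Trav7-4 and Trav3-3, each at a log2 fold change of -1.58 (edgeR adjusted p = 0.0194 and 0.0374). Larger differences were fitted for Trav21-dv12 (-3.18), Trav6n-6 (-2.75), Trav13n-4 (-2.62) and Trav8n-2 (-2.31), with edgeR adjusted p-values of 0.0132, 0.0286, 0.0449 and 0.0377. Trav11 (-6.45), Trav7-2 (-5.71), Trav15n-1 (-4.80) and Trav13n-2 (-4.03) were called at adjusted p-values of 0.0183, 0.0243, 0.00499 and 0.0444 in edgeR, and each has an identical copy. Of these 4 pairs, those of Trav11, Trav7-2 and Trav15n-1 also passed when the copies were summed. Trav7-4 and Trav21-dv12 kept their calls in 12 of 12 fits that left out 1 library, whereas the calls of Trav3-3, Trav6n-6, Trav8n-2, Trav13n-4 and Trav13n-2 were lost in 7, 5, 8, 9 and 8 of them. Without SOD1 CD4 replicate 2 the number of segments called was 7.

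Summed over its identical copies, Trav11 was lower in Treg than in CD4 at both ages. At d30 Treg had 0.310, 0 and 0.415 CPM in SOD1 and 0.276, 0.430 and 0.249 in WT, and CD4 had 3.20, 2.80 and 3.90 in SOD1 and 5.38 and 4.69 in WT. At d120 Treg had 1.41, 0.402 and 0 in SOD1 and 0.433, 0 and 0 in WT, and CD4 had 7.10, 13.6 and 3.84 in SOD1 and 20.5, 3.23 and 8.36 in WT. No Treg library reached the level of any CD4 library of its age. The log2 fold changes were -3.73 ± 0.84 at d30 (edgeR adjusted p = 0.0092) and -4.76 ± 0.80 at d120 (edgeR adjusted p = 3.04e-04). These fits did not pair same-numbered libraries, and the summed copies were not fitted with a replicate block. As a share of Trav counts the pair took 0 to 0.386% in Treg and 1.03% to 2.56% in CD4 at d30, and 0 to 1.21% against 1.47% to 6.04% at d120. Further pairs that passed at d120 when summed were Trav14d-1 with Trav14n-1 (-2.22), Trav15d-1-dv6d-1 with Trav15n-1 (-2.0), Trav14d-2 with Trav14n-2 (-1.73) and Trav7d-2 with Trav7-2 (-1.46), with edgeR adjusted p-values of 0.00696, 0.00797, 0.0253 and 0.0365.

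Genes of other T cell lineages also differed between the sorted populations. Of the 18 listed receptor genes, 16 were tested. In Treg 5 were higher and 2 lower than in CD4 at d30, and 7 were higher and 2 lower at d120. Zbtb16, the transcription factor of natural killer T cells, was lower in Treg, with log2 fold changes of -2.59 at d30 and -3.92 at d120 (edgeR adjusted p = 0.0100 and 1.01e-04). The summed level of a 5-gene natural killer T cell list was 45.5 to 93.6 CPM in Treg against 266 to 1028 in CD4 at d30, and 106 to 369 against 319 to 1493 at d120. Higher in Treg were Dntt, the enzyme that adds nucleotides at V(D)J junctions (2.46 and 3.06), Ptcra, the pre-receptor alpha chain (2.26 and 2.66), and the gamma constant gene Tcrg-C1 (2.84 and 1.90). Foxp3 was also higher (1.54 and 3.10). Tcrg-C2 and Tcrg-C4 were also called higher at both ages. Not all such genes passed. Rag1 (1.66 and 0.20) and the delta constant gene Trdc (0.44 and 0.20) passed at neither age. Their edgeR adjusted p-values were 0.0512 and 0.799 for Rag1 and 0.509 and 0.626 for Trdc. At d30 Rag1 was at 230 to 394 CPM in Treg and 31.2 to 145 in CD4, with no overlap. The d120 ranges overlapped. A 6-gene double-positive thymocyte list was at 1808 to 2286 CPM in Treg against 533 to 864 in CD4 at d30. At d120 it was at 482 to 850 against 223 to 510. A 5-gene gamma delta T cell list was at 1082 to 1384 CPM against 217 to 475 at d30. At d120 it was at 377 to 898 against 218 to 395. Cd8a was lower in Treg (-0.97 and -0.63, edgeR adjusted p = 0.00386 and 0.0240). The B cell list also moved at d120, at 1139 to 5095 CPM in Treg against 499 to 1378 in CD4, while at d30 it was 416 to 1442 against 530 to 890. The part of these lineages in the segment differences was not tested.

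Few segments were called between the ages. In Treg, edgeR's quasi-likelihood test called 0 of 83 segments higher and 2 lower at d120 than at d30, against 16.1% and 13.8% of all genes, and in CD4 1 of 71 higher and 0 lower, against 4.66% and 5.92%. Trav13n-2 fell in Treg by 4.37 ± 1.09 on the log2 scale (edgeR adjusted p = 0.0121). Its counts at d30 were 16, 3 and 6 in SOD1 and 0, 10 and 8 in WT, and at d120 0, 0 and 0 in SOD1 and 9, 3 and 0 in WT. Its identical copy Trav13d-2 went the other way, from 0, 0 and 0 in SOD1 and 5, 0 and 0 in WT to 33, 15 and 5 in SOD1 and 9, 0 and 5 in WT. The summed pair was at -0.65 and did not pass (edgeR adjusted p = 0.379).

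Trav15-2-dv6-2, which has no identical copy, fell in Treg by 1.37 ± 0.44 (edgeR adjusted p = 0.0316). Its levels were 2.57 to 4.83 CPM at d30 and 0.626 to 2.47 at d120, and the ages did not overlap. The call was lost in 8 of 12 fits that left out 1 library. In CD4 the called segment was Trav7-2 (edgeR adjusted p = 0.0134), at 0 counts in all 5 libraries of d30 and at 0, 10 and 10 in SOD1 and 14, 18 and 2 in WT at d120. Its copy Trav7d-2 had 99, 27 and 22 counts in SOD1 and 37 and 18 in WT at d30, and 9, 0 and 0 in SOD1 and 0, 0 and 0 in WT at d120. The counts moved from one copy to the other, and the sum was at 0.22 ± 0.60 (edgeR adjusted p = 0.849).

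Beta V counts relative to library depth were lower in the activated than in the unactivated cultures. Foxp3, the defining Treg factor, was at a median of 6.15 CPM in the unactivated cultures, against 17.7 CPM in sorted CD4 and 50.9 CPM in sorted Treg of d30, so the T0 libraries are called here by their label and time alone. Only 18 segments were abundant enough to test, 15 Trbv and 3 Trav, and all 15 Trbv had negative log2 fold changes at T2 and at T20, with medians of -1.52 and -1.11. By edgeR's quasi-likelihood test 12 of 18 segments were lower and 1 higher at T2, and 10 were lower and 1 higher at T20. Over all genes 34.3% were lower and 23.8% higher at T2, and 34.1% and 24.1% at T20, and the median of all genes was -0.24 and -0.25. Beta constant genes fell with them, Trbc1 by 2.16 and 1.91 and Trbc2 by 2.17 and 1.83 at T2 and T20, while Trac fell by 0.96 and 0.76.

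Trbv5 had 28.6, 28.8 and 46.0 CPM in SOD1 and 2.47, 20.1 and 30.7 in WT at T0. At T2 it had 13.5, 9.74 and 13.1 in SOD1 and 0, 7.18 and 10.3 in WT, and at T20 10.5, 9.33 and 14 in SOD1 and 15.3, 8.95 and 13.5 in WT. WT replicate 1 at T0 was far below the other T0 libraries, and without it every T0 library was above every activated one. The log2 fold changes were -1.68 ± 0.37 at T2 and -1.37 ± 0.37 at T20 (edgeR adjusted p = 8.45e-04 and 0.00436). Trbv12-1, a segment of the block, went from 10.1, 7.20 and 3.50 in SOD1 and 2.47, 8.78 and 7.30 in WT at T0 to 1.45, 0 and 0 in SOD1 and 2.13, 1.79 and 1.80 in WT at T20. No T20 library reached a T0 library, and the log2 fold change was -2.45 ± 0.54 (edgeR adjusted p = 7.88e-04). This separation rests on very few counts. The lowest T0 value came from WT replicate 1, with about 404580 total counts. The SOD1 T20 libraries at 0 had about 214320 and 285530 total counts.

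Segments called lower at both times, with their log2 fold changes at T2 and T20, were also Trbv31 (-1.61 and -1.27), Trbv19 (-1.56 and -1.02), Trbv4 (-1.52 and -1.56), Trbv2 (-1.40 and -1.25), Trbv3 (-1.08 and -0.99), Trbv16 (-2.10 and -1.60), Trbv13-3 (-1.72 and -1.37) and Trav14d-3-dv8 (-1.52 and -1.59). Trbv26 (-2.05) and Trbv13-1 (-1.23) were called at T2. The T20 count depended on single libraries: 3 segments were called without SOD1 T0 replicate 3, 6 without WT T0 replicate 1, 2 without WT T0 replicate 3 and 5 without WT T20 replicate 2. At T2 the 13 calls became 6 without WT T0 replicate 3.

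One segment rose. The pseudogene Trav20 (chr14:53863110-53863661) had 0, 1.20 and 2.33 CPM in SOD1 and 2.47, 0.836 and 1.46 in WT at T0. At T2 it had 2.75, 3.25 and 4.38 in SOD1 and 11.7, 8.38 and 3.44 in WT, and at T20 9.40, 9.33 and 3.50 in SOD1 and 4.16, 8.95 and 3.97 in WT. Every activated library was above every T0 library (log2 fold change 1.56 ± 0.62 and 2.03 ± 0.61, edgeR adjusted p = 0.0387 and 0.00808). In the shallow libraries these CPM rest on very few counts, so the lack of overlap partly reflects depth. Total counts were about 404580 in WT T0 replicate 1, 228180 in SOD1 T2 replicate 3 and 285530 in SOD1 T20 replicate 3. The T20 call was kept whichever library was left out, and the T2 call was lost in 6 of 12 such fits. The 23 sorted libraries together held 6 counts of Trav20.

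The 14 tested genes of the receptor list mostly fell with activation, 10 lower and 3 higher at each time. Dntt fell by 7.30 and 6.23 and Rag1, a recombinase gene, by 9.24 and 7.72 on the log2 scale at T2 and T20, and Tcrg-C2 was higher by 2.95 and 3.32. Foxp3 was higher by 3.26 and 3.36, at 2.47 to 30.3 CPM at T0 and 40.9 to 336 at T20. Dntt at T0 stood at 97.9 to 318 CPM. The share of thymocyte-like RNA at T0 in these differences was not tested.

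The block between Trbv5 and Trbv19 was counted in all 18 cultures. Its share was 27.4%, 30.7% and 13.5% in SOD1 and 45.2%, 37.3% and 16.6% in WT at T0, and 38.9%, 35.0% and 13% in SOD1 and 28%, 27.3% and 18.2% in WT at T20. Replicate 3 was the lowest of its group in all of these. In iLN the share was 29.7%, 35.7% and 30% in SOD1 and 16.7%, 45.5% and 0% in WT, the last from 0 of 23 counts, which allows up to 13%. Trbv24 took 0 to 2.75% of Trbv counts in cultures, and Trbv12-2 0 to 2.38%, below the 3.51% to 10.5% of Trbv12-2 in sorted libraries that had the block.

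The evenness of segment use was measured by an effective number, the inverse of the chance that 2 different counts of a library fall on the same segment. For Trbv at d30 it was 8.86 to 9.03 in the 3 libraries without the block, 13.8 to 14.5 in those near 25% and 16.5 to 17.2 in those near 50%. Over the segments outside the block it was 8.80 to 9.11 in Treg and 8.86 to 9.51 in CD4 at d30, so evenness at d30 differed little once the block was set aside. At d120 it was 8.13 to 9.42 in Treg and 7.51 to 10.8 in CD4. Whole thymus gave 9.23, 9.60 and 17.4 in SOD1 and 17.5, 10.2 and 15.9 in WT from TPM.

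For Trav the effective number in CD4 was 59.2 ± 1.80 (SD, n = 5) at d30 and 38.3 ± 7.06 (SD, n = 6) at d120. The ages did not overlap, at 56.2 to 60.9 against 29.6 to 46.0. The two-sided exact permutation test within genotype gave p = 0.01 and an adjusted p of 0.21 over the 21 such tests, of which none passed; the smallest p these designs allow is 0.005. CD4 libraries of d30 held 783 to 3817 Trav counts and those of d120 182 to 762, so age and depth moved together. In Treg the values were 57.1 ± 4.22 (SD, n = 6) and 47.6 ± 9.79 (SD, n = 6), with an exact permutation p of 0.075 and an adjusted p of 0.441.

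**Figure D4:**
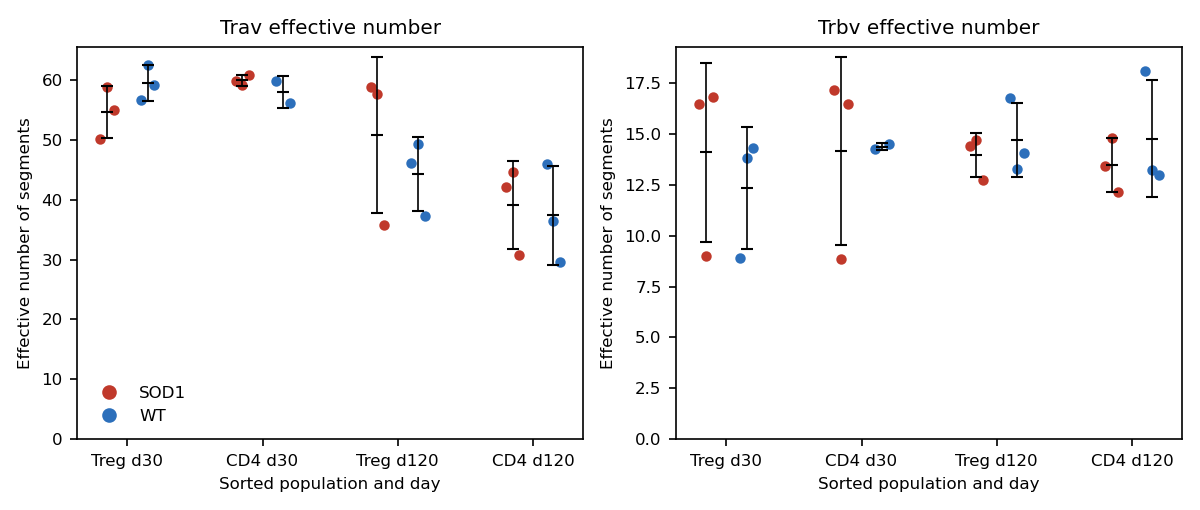
Effective number of Trav segments and of Trbv segments in each library (points), with the mean ± SD of each group (bars). CD4 libraries lie at 56.2 to 60.9 for Trav at d30 and at 29.6 to 46.0 at d120, and Trbv values near 9 belong to libraries without the segments between Trbv5 and Trbv19.

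The position of a segment along the alpha locus was summarised by the share of Trav counts on the 39 segments nearest to the J cluster. It was 37.4% ± 3.51 (SD, n = 6) in Treg and 33.9% ± 1.94 (SD, n = 5) in CD4 at d30, with an exact permutation p of 0.09 and an adjusted p of 0.441. In cultures it was 35.7% ± 7.95 (SD, n = 6) at T0 and 47.2% ± 13.2 (SD, n = 6) at T20, with an exact permutation p of 0.085 and an adjusted p of 0.441. Neither difference passed. The share was higher at T20 in 6 of 6 same-numbered cultures, but some of these shares rest on very few Trav counts. SOD1 T20 replicate 2 held 10 and WT T0 replicate 1 held 19. Adding each copy to the segment it copies reversed the sign of the T20 difference. Since identical copies lie in different parts of the locus, these shares also carry the uncertainty of copy assignment described above.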

How the data were processed

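Sorted Treg, CD4, cTEC and mTEC, inguinal lymph node and culture (titled Tregdiff) libraries came as raw counts per gene deposited by the authors, and whole thymus as TPM deposited by the authors, with genes keyed by Ensembl identifier. Per the labels' protocols, cells were sorted by flow cytometry and libraries made with the SMARTseq v4 low input kit from Takara. The submitters' processing notes name mm10 and DESeq2. No aligner, counting tool or rule for reads that match several genes is named: each is not given in the sources used here. Members and lists were chosen with earlier results of these data known.

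Counts were tested over the whole table with edgeR 4.0.16 (TMM, filterByExpr by group, quasi-likelihood F-test, legacy fit) in R 4.3.3, with Benjamini-Hochberg adjustment over all genes tested and calls at an adjusted p under 0.05. Treg, CD4 and cultures were each fitted with all of their groups. Comparisons of Treg with CD4 were fitted on all 23 sorted libraries. Their edgeR p-values come from fits that did not pair same-numbered libraries, unless a block is named. Whole thymus used limma 3.58.1 on log2(TPM + 1), with genes of mean at least 1 TPM. CPM were computed here from the deposited counts and each library total, with no TMM factor. Shares are percent of a library's counts on the locus, and their exact binomial 95% intervals and limits of 3 counts cover counting error only. Single values per library were compared by exact permutation within strata (scipy 1.17.1). Sequences are those of GENCODE vM21 transcripts, in which all 163 members were found. Copies were called identical where at least 95% of the shorter transcript aligned with no mismatch.

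Segments were named by a rule: the most counted 10 Trav and 8 Trbv, those absent in one genotype or switching between 1% and 0, up to 10 called per contrast and direction, and those of unconventional T cells. Alternatives were DESeq2 1.42.0, no filter, other pseudocounts, replicate blocks, leaving out each library, and 3 chosen after seeing the data (identical copies summed, Trbv without the block, paired exact tests). Same-numbered Treg and CD4 libraries of d30 deviated together, with correlations of 0.175 to 0.254 in all 5 pairs, so those numbers were taken to pair the samples.

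On simulated data edgeR recovered 75 of 100 genes changed 4-fold and 46 of 100 changed 2-fold for age in Treg (14391 genes), with 5 false among 126 calls. For Treg against CD4 at d120 (15134 genes) it recovered 61 and 18 of 100, with 3 false among 82. For T20 against T0 (11272 genes) it recovered 79 and 28 of 100, with 6 false among 113. The changed genes were drawn only from genes above a minimum mean count, and comparisons between genotypes were not simulated with edgeR. These rates therefore do not describe segments with fewer counts or the tests of genotype.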

Additional observations from a re-analysis of the deposited data

How the results depend on the processing

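Median-of-ratios scaling in edgeR kept all 14 counts of called segments and 39 of 40 named calls, and DESeq2 kept 36 of 40. Without a filter on low counts the number of segments called became 1 for genotype in Treg d120, 3 for genotype in CD4 d120, 4 for age in CD4, 6 for Treg against CD4 at d30 and 6 for T20 against T0, and 24 of 40 named calls were lost. DESeq2 called 1 segment for genotype in CD4 d120, 3 for age in CD4 and 9 for Treg against CD4 at d30. With identical copies summed, an alternative chosen after seeing the data, the counts became 1 for age in Treg, 0 for age in CD4, 2 for Treg against CD4 at d30 and 0 for whole thymus. In whole thymus, 0 segments were called with no filter on low values, 2 with a pseudocount of 0.1 TPM and 0 with 5 TPM. With the replicate block, 0 segments were called for Treg against CD4 at d30, where the numbers pair the samples, 7 at d120, where correlations of 2 of 6 pairs were under 0.1, and 0 in thymus; it moved no other count beyond 1.5 times. The cause of these moves was not tested.

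Leaving out 1 library gave 1 to 3 calls for age in Treg, 0 to 2 for age in CD4, 0 to 1 and 7 to 12 for Treg against CD4 at d30 and d120, 6 to 14 and 2 to 12 for T2 and T20 against T0, and 0 to 3 in thymus; genotype counts in Treg, CD4, iLN and cultures stayed at 0. Single calls were kept in 349 of such fits and lost in 134. Age in Treg fell to 1 call without SOD1 d30 replicate 1 or 3, WT d30 replicate 1 or 2, SOD1 d120 replicate 1 or 2 or WT d120 replicate 1. Age in CD4 had 0 without WT d30 replicate 2 or 3 and 2 without SOD1 d120 replicate 1. Treg against CD4 at d30 had 0 without SOD1 CD4 3, WT CD4 3, SOD1 Treg 3 or any WT Treg library. Thymus had 0 without SOD1 2 or WT 2, and 3 without SOD1 1. Where an arm was left with 1 library, that library was assumed to vary like the other groups.

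None of the 21 effective-number and position tests passed, and several differences changed sign. Adding each copy to the segment it copies gave -0.574 for the Trav effective number by genotype in CD4, and for the share near the J cluster -1.59 and -0.0936 by genotype in Treg and CD4, -2.35 by age in CD4, -1.03 for Treg against CD4 at d120 and -0.396 for T20 against T0. Pairing same-numbered libraries (a replicate block, added after seeing the data) gave an exact permutation p of 0.03125, the smallest possible, and an adjusted p of 0.219 both for the share near the J cluster at T20 against T0 (11.5, higher in 6 of 6 pairs) and for the Trav effective number of Treg against CD4 at d120 (9.30, higher in 6 of 6); none of the 9 paired tests passed. Identical copies summed gave a Trav effective number difference of 0.588 for Treg against CD4 at d30. Leaving out libraries under 1000 counts gave Trbv effective number differences of -0.163 for age in Treg and 0.221 for Treg against CD4 at d30; it left too few libraries for 18 other values. Without pseudogenes the J-proximal share by age in Treg was 1.14, and without the block, chosen after seeing the data, the Trbv effective number by genotype in Treg was -0.0905. Leaving out 1 library, the Trav effective number ranged from -1.12 to 4.65 by genotype in Treg and -0.0952 to 4.0 in CD4. The Trbv effective number ranged from -0.360 to 1.77 and -1.51 to 0.573 by genotype in Treg and CD4, -0.163 to 1.79 and -1.47 to 0.606 by age in Treg and CD4, and -2.38 to 0.221 and -0.315 to 1.04 for Treg against CD4 at d30 and d120. The J-proximal share ranged from -0.0621 to 1.36 by genotype in CD4, -2.58 to 0.828 by age in Treg and -0.163 to 3.24 for Treg against CD4 at d120. Low Trav counts, 182 to 762 per CD4 library at d120, limit single segments most.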

Other observations

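The sorted epithelial libraries, which enter no test above, also held receptor counts, 471 to 3251 on Trbv in cTEC at d30. In cTEC the block between Trbv5 and Trbv19 took 54.3%, 0% and 51.2% of Trbv counts in SOD1 at d30, and 20.2% in WT replicate 2 at d30. Trbv24 took 1.27%, 11.8% and 0.780% in those SOD1 libraries, and 4.67% and 14.1% in WT replicates 2 and 3 at d30, of which replicate 3 had no count on the block. At d120 epithelial libraries held 0 to 216 Trbv counts. The block took 60.8% of 51 counts in cTEC and 41.7% of 216 in mTEC of WT replicate 1, the replicate whose Treg and CD4 libraries had the largest block shares of that age. It also took 64.1% of 64 counts in cTEC and 59.4% of 32 in mTEC of SOD1 replicate 1, and 28.7% of 143 in cTEC and 43.4% of 129 in mTEC of SOD1 replicate 2, whose Treg libraries were at 24.3% and 25.6%. In cTEC of WT replicate 3 it took 19.5% of 41. By correlation of Trbv shares over 35 segments, 6 of 11 Treg libraries were closest to the CD4 library of the same genotype, age and number.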
